A study of Mus musculus with 2 samples.

Results

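The aminoacyl-tRNA synthetase genes examined here are 37 rows of the 36808 genes in the deposited table, taken by gene symbol, and they comprise 21 cytosolic and 16 mitochondrial enzymes or enzyme subunits. They were selected on gene symbol, with Lars2 set apart because its FPKM values in these libraries were already known to differ. The differences between the libraries are therefore given as a description and carry no test. One culture of C57Bl6 primary hepatocytes was exposed to 1 µM GW3965, which activates the liver X receptors (LXR), and the other received the solvent DMSO. All cultures were kept in William E medium with serum, insulin and dexamethasone. There was 1 RNA sequencing library per group, so no difference has a replicate check. The sources used here do not state the number, age or sex of the animals or the time of exposure. The deposited table names its libraries DMSO and GL, and GL was taken to be GW3965 since the labels hold no sample besides these; that reading is not certain.

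Aminoacyl-tRNA synthetases attach each amino acid to its tRNA and so supply the ribosome. Mammalian cells have one set of enzymes in the cytosol and another, also encoded in the nucleus, that is imported into mitochondria to charge the tRNAs for the respiratory chain subunits made there. Several cytosolic enzymes are bound together in a multi-synthetase complex. Genes of the cytosolic set are known targets of ATF4, the transcription factor of the amino acid response, which binds the C/EBP-ATF response element. Gars and Kars encode enzymes that serve both compartments, and they are counted as cytosolic here.

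Lars2, the mitochondrial leucyl-tRNA synthetase, was the one member that differed by more than 1.5-fold. Its level was 53.1 FPKM (fragments scaled for transcript length and library depth) in the GW3965 library, against 109 FPKM in the DMSO library. The level in the GW3965 library was thus 0.485 times that in the DMSO library. On the scale used below, log2 of (FPKM + 1) in GW3965 over (FPKM + 1) in DMSO, which understates differences of low genes, the ratio was -1.03. The remaining 36 members lay between -0.17 and 0.33. The next lowest, Nars2 at -0.17, was nearer to 0 than to Lars2.

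Of the 11796 genes with at least 1 FPKM in either library, 1.33% were at least 1.5-fold lower and 1.02% at least 1.5-fold higher in the GW3965 library, 2.35% in all. All 37 members reached the minimum of 1 FPKM. Among the members, 1 was lower (Lars2) and 0 were higher by that size. At 2.35% of all genes, a set of 37 would hold about as many, so nothing about the family is read from the count. The authors' deposited table gives Lars2 q = 8.72e-05 and calls it. It does not call the other 36, with q = 0.999957 for 35 of them and no completed test for Lars, which is marked as failed. The authors' deposited table calls 0.285% of the 15090 genes it tested, and 0.119% as lower in GW3965. That test compares the reads of 2 libraries, not the conditions.

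The gene Lars2 (ENSMUSG00000035202) lies on chromosome 9 between 123276058 and 123371782 in the mm9 build of the table. The bases before its start are shown because the largest difference of the family is found at this gene. They are the 250 bases upstream of the RefSeq start in GRCm38.p6, chr9:123366677-123366926 on the plus strand, with GC boxes (GGGCGG or CCGCCC, either strand) in capitals. The GC box was added to the search after the values were known.
Lars2 upstream: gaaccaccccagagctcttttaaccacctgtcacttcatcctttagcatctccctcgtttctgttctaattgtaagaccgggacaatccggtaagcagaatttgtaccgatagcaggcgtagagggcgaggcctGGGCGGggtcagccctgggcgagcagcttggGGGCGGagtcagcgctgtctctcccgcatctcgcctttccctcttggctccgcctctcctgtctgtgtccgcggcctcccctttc

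The window held 2 GC boxes and was 59.2% G or C. A GC box occurred upstream of 35.4% of the 27025 genes with a promoter in the RefSeq table. The window held no match, on either strand, to the C/EBP-ATF response element TGATGNAA, the NRF1 site GCATGCGC, the ETS core CCGGAAGT, the YY1 site AAGATGGC, the E-box CACGTG or the DR4 element bound by LXR (direct repeats spaced by 4 bases). This says only that these letters are not in these bases.

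Among the other members, 28 of the 37 genes, 14 in each compartment and Lars2 among them, had a promoter in the RefSeq table. The response element TGATGNAA was found upstream of 3 of 14 cytosolic genes (21.4%) and 0 of 14 mitochondrial genes, against 3.91% of all genes. The NRF1 site GCATGCGC, bound by a factor that controls nuclear genes for mitochondrial proteins, was found upstream of 0 of 14 cytosolic and 3 of 14 mitochondrial genes, against 2.56% of all genes. These are matches of letters in a few genes and not shown binding. At these shares of all genes, 0 of 14 is about what the background gives, so no contrast between the compartments is read from it. Sites in Gars, Tars, Rars2, Wars2 and Vars2 are printed as examples of the matches. Capitals mark the match, and each line reads along the gene's own strand. The response elements and the Wars2 site appear as reverse complements.
Gars, chr6:55037962-55037987, plus strand: gctgcgctaTTTCATCAtgcaccggg
Tars, chr15:11399659-11399682, minus strand: ggagtcccgTTGCATCAgctggtt
Rars2, chr4:34614897-34614922, plus strand: gccccgtgtGCATGCGCactccacac
Wars2, chr3:99141017-99141042, plus strand: agaggacagGCGCATGCgtagtaagc
Vars2, chr17:35667622-35667647, minus strand: gtcttttacGCATGCGCctgcgtgtc

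The coordinates are those of GRCm38.p6. Vars2 held a second NRF1 match 20 bases before its start. The match in Gars began 30 bases before the start and that in Tars 15 bases before it. The ETS core occurred in Farsa and Mars (14.3% of cytosolic genes, against 3.23% of all genes), the E-box in Aars, Farsb and Iars (21.4% against 6.86%), and the YY1 site in Farsa (7.14% against 1.83%). None of these 3 motifs was found upstream of a mitochondrial member, which at these shares of all genes is about what the background gives. The DR4 element was found upstream of 0 members and of 4 of the 27025 genes. The matches to different motifs did not overlap.

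The cytosolic genes were mostly at higher levels than the mitochondrial ones. Their FPKM had a median of 64.1 in the GW3965 library (lowest 2.90, highest 187) and of 62.0 in the DMSO library (lowest 2.86, highest 157). Gars, the glycyl-tRNA synthetase, was the highest member in both libraries, and Tarsl2, a second cytosolic threonyl enzyme, was the lowest of the cytosolic set. Tars, the main threonyl enzyme, stood at 70.5 FPKM in GW3965 and 65.0 FPKM in DMSO, above the median of the set. The mitochondrial genes were lower, with a median of 8.20 FPKM in the GW3965 library (lowest 2.04, highest 53.1) and 8.05 FPKM in the DMSO library (lowest 2.20, highest 109). Mars2, the methionyl enzyme, was the lowest and Lars2 the highest in each.

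**Figure D1:**
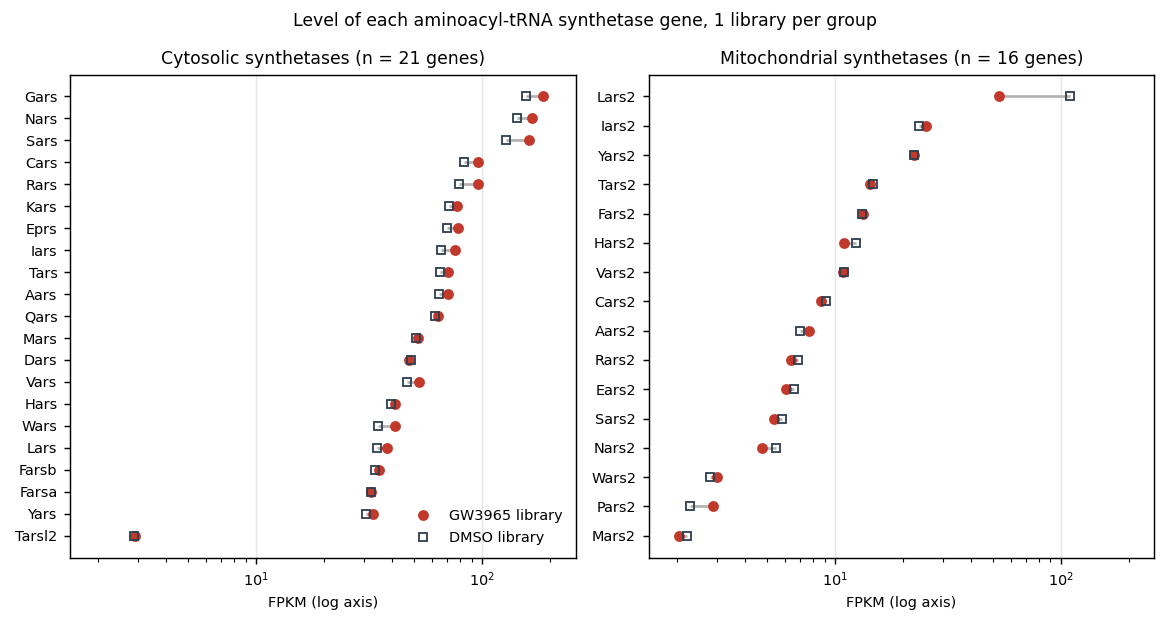
FPKM of each synthetase gene on a log axis, cytosolic genes left and mitochondrial genes right, with the GW3965 library as filled circles and the DMSO library as open squares (1 library each). Lars2, at 53.1 and 109 FPKM, has the widest gap and stands above the other 15 mitochondrial genes in each library.

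The level of Lars2 stood apart from its compartment in each library, and this is a comparison of levels within a library rather than of the 2 libraries. In the GW3965 library Lars2 was 2.10 times as high as Iars2, the isoleucyl enzyme and the next mitochondrial gene, and in the DMSO library 4.62 times as high. Among all 37 members it ranked 12 in GW3965 and 4 in DMSO, where Gars, Nars and Sars alone were higher. Lars2 made up 26.9% of the summed FPKM of the 16 mitochondrial genes in GW3965 and 42.9% in DMSO. Without it the mitochondrial sums were 144 FPKM in GW3965 and 146 FPKM in DMSO, while the cytosolic sums were 1520 FPKM in GW3965 and 1343 FPKM in DMSO.

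Pairing each mitochondrial gene with the cytosolic gene for the same amino acid gave 17 pairs, with Eprs, the bifunctional glutamyl-prolyl enzyme, used for Ears2 and Pars2, and Farsa and Farsb, the subunits of the phenylalanyl enzyme, both set against Fars2. In 16 of 17 pairs the mitochondrial gene was the lower one in each library, and the leucyl pair was the exception. Lars2 was 1.40 times as high as Lars in GW3965 and 3.20 times as high in DMSO, with Lars at 37.9 FPKM in GW3965 and 34.3 FPKM in DMSO. The other 16 mitochondrial-to-cytosolic quotients ran between 0.0285 and 0.680 in GW3965 and between 0.0326 and 0.731 in DMSO, the highest being that of the tyrosyl pair Yars2 and Yars.

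**Figure D2:**
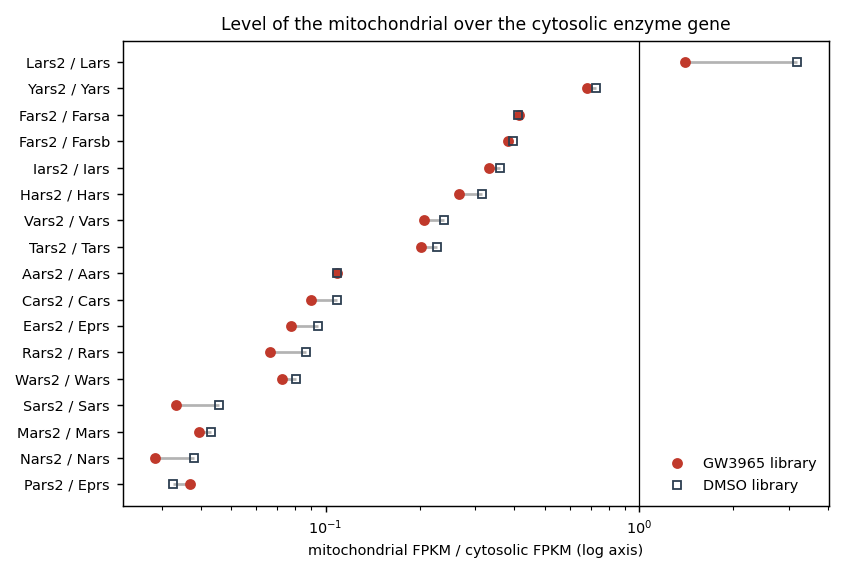
Quotient of the mitochondrial over the cytosolic FPKM for each amino acid on a log axis, with the GW3965 library as filled circles and the DMSO library as open squares. The leucyl pair alone lies right of 1, at 1.40 in GW3965 and 3.20 in DMSO.

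The cytosolic set as a whole was slightly higher in the GW3965 library. Of the 21 genes, 20 had a ratio above 0, or 19 of 21 when centred on the median of all genes. Their median was 0.14, with a range from -0.03 to 0.33. Of these genes 0 passed 1.5-fold, against 2.35% of all genes. Among all 11796 genes 52.9% had a ratio above 0, and the median was 0.01. Levels differ between the sets, and genes with a mean level between 30 and 100 FPKM, where most of the cytosolic genes lie, had a median ratio of 0.04 with 61.3% above 0. Genes with a mean level between 1 and 10 FPKM, where most mitochondrial synthetases lie, had a median of -0.01 with 46.6% above 0.

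Sars, the seryl-tRNA synthetase, had the highest ratio of the family, with 161 FPKM in GW3965 and 128 FPKM in DMSO (0.33). Rars, the arginyl enzyme, had 96.4 FPKM in GW3965 and 78.8 FPKM in DMSO (0.29). Gars had 187 FPKM in GW3965 and 157 FPKM in DMSO (0.25). All 3 were higher in the GW3965 library by less than 1.5-fold. Wars, the tryptophanyl enzyme, had 41.2 FPKM in GW3965 and 34.8 FPKM in DMSO (0.24). Nars, the asparaginyl enzyme, had 166 FPKM in GW3965 and 144 FPKM in DMSO (0.21), and Cars, the cysteinyl enzyme, had 96.3 FPKM in GW3965 and 83.5 FPKM in DMSO (0.20). Of these 6 genes, Wars alone lay below the median cytosolic level.

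Iars, the isoleucyl enzyme, had 76.0 FPKM in GW3965 and 65.9 FPKM in DMSO (0.20), and Vars, the valyl enzyme, had 52.8 FPKM in GW3965 and 46.3 FPKM in DMSO (0.18). Of the branched-chain enzymes of the cytosol, Lars stood at 0.14. At the other end, Dars, the aspartyl enzyme, had 47.5 FPKM in GW3965 and 48.6 FPKM in DMSO and was the one cytosolic gene below 0 (-0.03). Farsa, the alpha subunit of the phenylalanyl enzyme, was level at 32.2 FPKM in each library (0.00), and its partner Farsb stood at 0.06. Tarsl2 (0.01), Mars (0.02) and Qars, the glutaminyl enzyme (0.05), were also near 0.

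The 8 enzymes of the multi-synthetase complex had a median of 0.13, with 7 above 0, and the 13 cytosolic genes outside it had a median of 0.14, with 13 above 0. The complex's scaffold proteins Eef1e1 (0.12), Aimp1 (0.09) and Aimp2 (0.07) were all slightly higher in the GW3965 library. Synthetases fall into a pair of unrelated structural classes, and the medians were 0.06 for the 18 class I and 0.06 for the 18 class II genes, with the bifunctional Eprs counted in neither. Lars2 belongs to class I, and its class otherwise ran up to 0.29.

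The mitochondrial set was more mixed in direction than the cytosolic one. Of its 16 genes, 6 had a ratio above 0 and 10 below, with a median of -0.05, or -0.04 without Lars2. When centred on the median of all genes, 4 of 16 were above 0. Pars2, the prolyl enzyme, was the highest at 2.89 FPKM in GW3965 and 2.28 FPKM in DMSO (0.25, or 0.34 without a pseudocount). Nars2, the asparaginyl enzyme, had 4.74 FPKM in GW3965 and 5.46 FPKM in DMSO (-0.17), and Hars2, the histidyl enzyme, had 11.0 FPKM in GW3965 and 12.4 FPKM in DMSO (-0.16). Apart from Lars2, the mitochondrial genes with the highest levels, Iars2 at 25.3 FPKM in GW3965 and 23.7 FPKM in DMSO (0.09) and Yars2 at 22.5 FPKM in GW3965 and 22.3 FPKM in DMSO (0.01), were close to level. Mars2 had 2.04 FPKM in GW3965 and 2.20 FPKM in DMSO (-0.07). In 15 of the 17 pairs the mitochondrial ratio was below that of the cytosolic partner, with a median difference of -0.17. The exceptions were Fars2 against Farsa and Pars2 against Eprs. The leucyl pair had the largest difference, -1.17, and the others ran from -0.43 to 0.08.

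**Figure D3:**
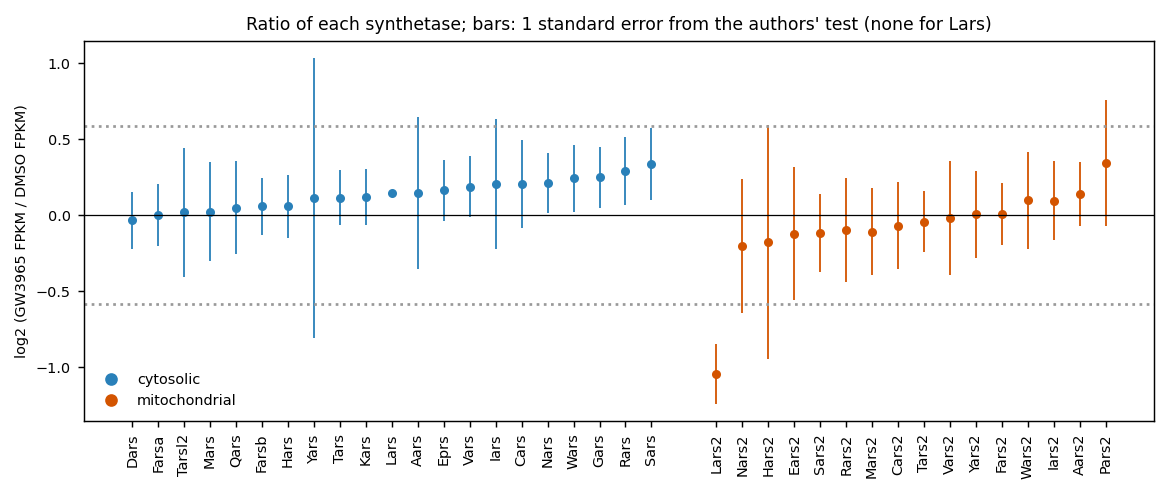
Log2 of GW3965 FPKM over DMSO FPKM without a pseudocount for each synthetase, cytosolic genes in blue and mitochondrial genes in orange, each set ordered by its ratio with the pseudocount. Bars are 1 standard error derived from the authors' test, dotted lines mark 1.5-fold, and Lars2 at -1.04 is the one point beyond them.

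The precision of these ratios differs by source of error. The steps between low FPKM values put the depth at about 78.7 M fragments for GW3965 and 63.3 M fragments for DMSO. Fragments were estimated with the longest GENCODE coding transcript as the length, so they can be too high. On that basis members other than Mars2 would rest on at least 418 fragments in each library, the fewest being Pars2 in DMSO. The counting error of a log2 ratio would then be at most 0.09, and 0.01 for Lars2. Mars2 is not covered, because its transcript of 11294 bases is longer than its locus (55294021 to 55296902). Its fragments are overstated and its counting error understated. The authors' deposited table implies larger standard errors, from 0.18 to 0.92 with a median of 0.26, and 0.20 for Lars2. By those, 30 of the 36 members the authors tested lay within 1 standard error of 0 and 35 within 2, with Lars2 as the exception. One by one, the small ratios of the cytosolic genes are thus not distinguishable from 0 by the authors' error. Neither error covers differences between cultures.

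**Figure D4:**
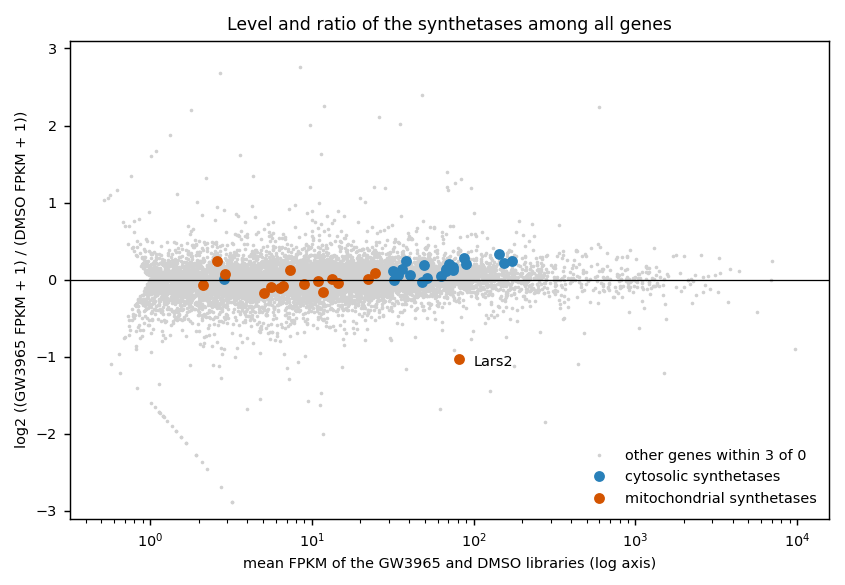
Ratio with a pseudocount of 1 against the mean FPKM of the 2 libraries on a log axis, for genes with at least 1 FPKM in either library and a ratio within 3 of 0 (grey), cytosolic synthetases (blue) and mitochondrial synthetases (orange). Lars2 lies at -1.03, and the other 36 members lie between -0.17 and 0.33.

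Of 17 genes in loci within 200 kb of Lars2, 7 had at least 1 FPKM, and their ratios ran from -0.16 to 0.24. With 2.35% of all genes past 1.5-fold, the absence of such a gene among 7 is what the background gives, and nothing is read from it. Limd1, the nearest of them at 16.0 kb, had 24.92 FPKM in GW3965 and 24.95 FPKM in DMSO (0.00), and Sacm1l, a phosphoinositide phosphatase, had 21.0 FPKM in GW3965 and 20.6 FPKM in DMSO (0.03). Cdcp1 stood at 0.19, Tmem158 at -0.09, and Lztfl1 (-0.03), Fyco1 (-0.16) and Gm10052 (0.24) share one locus. AC125254.1, which shares the locus of Lars2, is listed at 0 in both libraries with a mark for too few data.

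The transcripts of Lars2 had few exact words of 25 bases in common with transcripts of other genes. Of its 11142 distinct words of 25 bases in GENCODE M21, 1.90% occurred in transcripts of any other gene on either strand, and the closest gene held 0.395%. The transcripts of the mitochondrial ribosomal RNAs mt-Rnr1 and mt-Rnr2 and of AY036118 held 0 of these words. Their ratios were 0.09 for mt-Rnr1, -0.08 for mt-Rnr2 and -0.21 for AY036118. Sequences outside the GENCODE transcripts were not compared, so the words do not show that the Lars2 value is free of reads from elsewhere. Gm15564, on another chromosome, was near 0 at 0.0308 FPKM in GW3965 and listed at 0 in DMSO. Iars2 shared the most words with another gene (24.2%, mainly with Rab3gap2), followed by Iars (18.4%, mainly with the pseudogene Gm4849) and Aars (15.3%, mainly with Exosc6), so their values are less certain. In all, 16 members share a locus of the table with another gene, Hars and Hars2 with each other.

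The genes that act beside the synthetases were compared through lists. Among all genes 52.9% had a ratio above 0. The share was 57.3% at a mean level of 10 to 30 FPKM and 61.3% at 30 to 100 FPKM. For cytosolic translation factors, 18 of 20 had a ratio above 0, with a median of 0.09. Eif5b, which joins the ribosomal subunits, stood at 0.29, and Eef1a1, which brings charged tRNA to the ribosome, had 7637 FPKM in GW3965 and 6447 FPKM in DMSO (0.24). Eif4a1, an RNA helicase of initiation, stood at 0.20 and Eif3b at 0.17. Of 24 genes of ATF4 and the amino acid response, 20 were above 0, with a median of 0.18. Of these 24 genes 0 passed 1.5-fold, against 2.35% of all genes. Phgdh, the first enzyme of serine synthesis, had 121 FPKM in GW3965 and 89.0 FPKM in DMSO (0.44), Vldlr, a lipoprotein receptor, stood at 0.39, Cth, the cystathionine lyase, at 0.36 and Ddit4, an mTORC1 inhibitor, at 0.33. Asns, the asparagine synthetase, stood at 0.30, while Atf4 itself was level (0.00) and Atf3 stood at -0.33.

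Of 18 amino acid transporters, 15 were above 0, against 52.9% of all genes, with a median of 0.20. Slc7a11, the cystine carrier, had 13.3 FPKM in GW3965 and 8.97 FPKM in DMSO (0.52), and Slc7a2, a cationic amino acid carrier, stood at 0.40. Slc38a3, a glutamine carrier of the liver, had 35.8 FPKM in GW3965 and 51.0 FPKM in DMSO (-0.50), and Slc43a1, a carrier of branched-chain amino acids, stood at -0.47. Slc7a5, the main leucine carrier, stood at 0.31. Among 16 genes of leucine sensing and breakdown 8 were above 0, with a median of 0.01 that turned to -0.00 when centred, Rragd, a GTPase of the amino acid sensing pathway, at -0.51, Mccc2 at -0.36, Bckdhb at -0.35 and Rptor at 0.19. The kinases of eIF2 alpha had a median of 0.10, with Eif2ak3 at 0.20, Eif2ak4 (GCN2, which senses uncharged tRNA) at 0.14, Eif2ak1 at 0.06 and Eif2ak2 at -0.15. The 3 measured genes of editing in trans and related deacylases were all below 0, with Dtd1 at -0.17, Prorsd1 at -0.17 and Aarsd1 at -0.09.

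On the mitochondrial side, none of the lists held a gene past 1.5-fold other than Lars2. With 2.35% of all genes past that size, lists of this length would hold few or none, and nothing is read from it. Of 76 mitochondrial ribosomal proteins, 17 were above 0 (22.4%, against 52.9% of all genes). Their median was -0.06, with a range from -0.27 to 0.15. The largest in size were Mrpl13 (-0.27), Mrpl48 (-0.23), Mrps36 (-0.23) and Mrps16 (-0.21). Of 17 genes of mitochondrial tRNA maturation, 6 were above 0, with a median of -0.04. These include Gtpbp3 (-0.21) and Mto1 (-0.16), which modify the wobble base together, and the pseudouridine synthase Pus1 (0.19). The list also holds Tfb1m (-0.14), which methylates the small ribosomal RNA of mitochondria rather than a tRNA. Of 10 translation factors 7 were above 0, with a median of 0.04, Mtrf1l at 0.26, Mrrf at 0.22, Mtif2 at -0.07 and Tufm at 0.06. Of 12 genes of mitochondrial transcription and DNA, 6 were above 0, with a median of -0.01, and Tfam, which packages mitochondrial DNA, had 24.98 FPKM in GW3965 and 29.3 FPKM in DMSO (-0.22). Polrmt stood at 0.13, Polg2 at -0.12 and Mterfd3 at -0.11.

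The mRNAs that mitochondria translate themselves, a list added after the values were seen, showed no difference of the size of that of Lars2. Of the 13 in the table, 11 gave a value, and they ran from -0.09 to 0.11 with a median of 0.03. The highest ratio was that of mt-Co2, with 4523 FPKM in GW3965 and 4187 FPKM in DMSO. mt-Co1 is listed at 0 in GW3965 with a mark for too many fragments, which is a failed estimate and was not used. The leucine tRNAs that LARS2 charges, mt-Tl1 and mt-Tl2, are listed at 0 in both libraries and give no value.

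**Figure D5:**
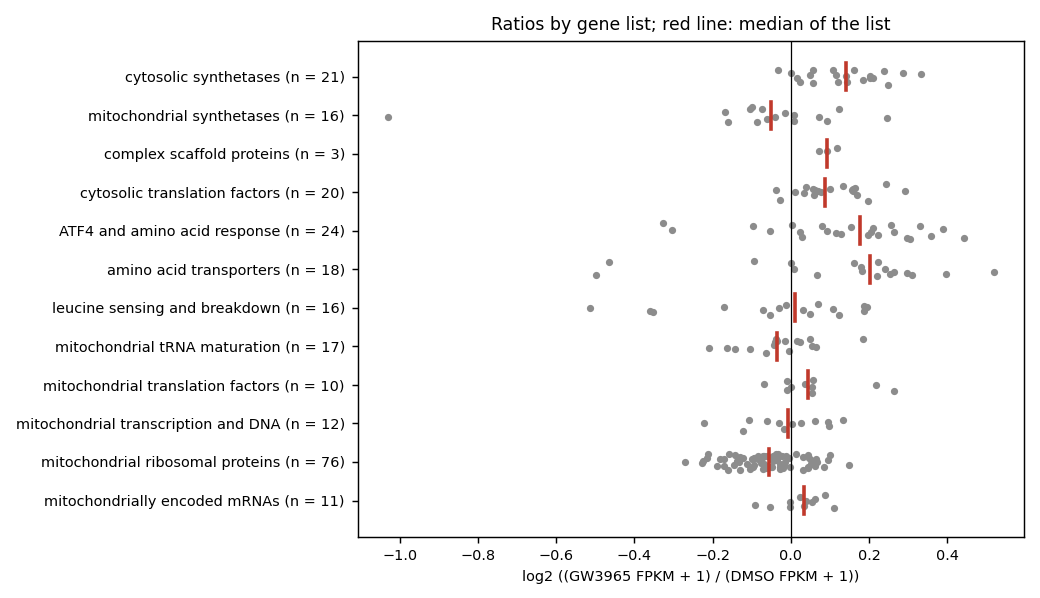
Ratio with a pseudocount of 1 for each gene (grey points, spread vertically for legibility) in 12 lists, with the median of each list in red. Cytosolic synthetases, amino acid transporters and ATF4 genes have medians of 0.14, 0.20 and 0.18, mitochondrial lists lie between -0.06 and 0.04, and Lars2 is the isolated point at -1.03.

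The labelled cell type was checked against markers. Of 8 hepatocyte genes 7 reached 1 FPKM, with a summed level of 1684 FPKM in GW3965 and 1715 FPKM in DMSO, while Tat was at 0.447 FPKM in GW3965 and 0.962 FPKM in DMSO and Cps1 at 2.098 FPKM in GW3965 and 1.497 FPKM in DMSO. Most of that sum came from Apoa1, Apoc3 and Apob, and single genes went other ways. Serpina1a had 99.9 FPKM in GW3965 and 138 FPKM in DMSO (-0.46), and Hnf4a, a transcription factor of hepatocytes, had 37.4 FPKM in GW3965 and 49.4 FPKM in DMSO (-0.39), both larger in size than the ratio of any synthetase but Lars2. Other cell types were present. All sums, the hepatocyte sum included, take in markers below 1 FPKM. Endothelial markers, 4 of 4 at 1 FPKM or more, summed to 136 FPKM in GW3965 and 114 FPKM in DMSO. Of that, Pecam1, whose test is marked as failed, gave 42.6 FPKM in GW3965 and 35.1 FPKM in DMSO. Macrophage markers, 5 of the 5 found by symbol, summed to 110 FPKM in GW3965 and 93.7 FPKM in DMSO. Stellate and fibroblast markers, 3 of 4, summed to 73.8 FPKM in GW3965 and 71.5 FPKM in DMSO. Most of it was Dcn, with 65.6 FPKM in GW3965 and 64.8 FPKM in DMSO. Of the macrophage sum, Cd68 alone gave 93.9 FPKM in GW3965 and 74.9 FPKM in DMSO. Of the other macrophage genes, Lyz2 (-0.31), Emr1 (-0.14) and Csf1r (-0.10) were lower in GW3965 and Clec4f stood at 0.04. Cholangiocyte markers, 2 of 3, summed to 21.5 FPKM in GW3965 and 19.6 FPKM in DMSO, and leukocyte markers, 1 of 3, to 1.21 FPKM in GW3965 and 1.33 FPKM in DMSO. Fewer cells of a type and less RNA per cell cannot be told apart here, and the part of these cells in the ratios of the synthetases was not tested. With 1 library per group, an effect of GW3965 and a difference between cultures cannot be told apart either.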

How the data were processed

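RNA of 1 culture library per group was sequenced from TruSeq libraries, per the labels. The submitters' processing notes name Cuffdiff, Cufflinks 2.0.2, TopHat2 2.0.6 and CASAVA as the authors' tools, with the mm9 build and NCBIM37. The sources used here do not give settings, strand or the scaling of libraries. The authors deposited FPKM, the unit of Cuffdiff's gene table, with a p-value and q-value for each gene. The authors' deposited test statistic is a score, and dividing the size of the log2 FPKM ratio by the size of that score gave the standard error.

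Ratios were computed with a pseudocount of 1 on the log2 scale. Genes with at least 1 FPKM in either library entered the counts, at 1.5-fold; no p-value was computed. The 7 genes marked for too many fragments were left out. Depth came from the ratio of FPKM steps in 3769 low genes, 1.24 for DMSO over GW3965, and from 80 single-transcript genes of GENCODE M21, and fragment numbers are estimates that cover counting error only. Words of 25 bases were compared over GENCODE transcripts. Motifs were searched in 250 bases before the RefSeq start. Table starts were taken as counted from 0.

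The members and lists were chosen with earlier results of these data known. Values were named for the members with the 10 largest ratios, the highest and lowest of each compartment, up to 4 members of each list, and genes within 200 kb of Lars2; others named were chosen after their values were seen. Of the list symbols, 8 matched no gene. The ratios and the size rule were tested on simulated data. Python 3.11.15, numpy 2.4.6, pandas 2.3.3 and matplotlib 3.10.9 were used.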

Additional observations from a re-analysis of the deposited data

How the results depend on the processing

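Lars2 was the one synthetase past 1.5-fold under each alternative run, with other pseudocounts, other minimum levels, a 2-fold threshold, centring, equal library sums and the authors' tested genes, and the count was 0 without it by construction. Its ratio ran from -1.04 to -0.98. The medians of the cytosolic and mitochondrial sets and of the other lists moved by less than the counting interval of a typical member under those settings that apply to them and when Gars and Kars were left out or moved. For the mitochondrial set that interval was 0.088, larger in size than its median of -0.05, so a change of sign would have passed. The number of cytosolic genes above 0 was 19 of 21 after centring, and that of mitochondrial genes 4 of 16. Counts over all genes past 1.5-fold were 194 higher and 320 lower with a pseudocount of 0.1, 56 and 56 with 5, and 39 and 55 at 2-fold, and 82 were lower at a minimum of 5 FPKM, against 120 and 157. The cause was not tested. By the estimated fragments, depth limits Pars2 and Tarsl2 most. Mars2, the lowest member by FPKM, has an overstated estimate and could not be ranked. No paired analysis was possible because GW3965 and DMSO had 1 library apiece.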
